A study of Mus musculus with 2 samples.

Results

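Prostaglandins are lipid mediators made from arachidonic acid, and the 10 genes described here encode enzymes that make or degrade them and receptors that bind them: Ptgs1, Ptgs2, Ptges, Ptgds, Hpgds, Hpgd, Ptger1, Ptger3, Ptger4 and Ptgfr. They were taken by symbol from the deposited gene table, which lists 32285 genes, and all 10 were found in both libraries. The data came from 2 libraries of single cells, 1 from each kidney condition, in male wildtype C57BL/6J mice aged 19 weeks. The control library was the uninjured contralateral kidney, and the ischemia library was a kidney exposed to 27 min of ischemia and 24 h of reperfusion. The control kidney was therefore taken from an animal whose other kidney was clamped, neither library came from a sham-operated animal, and the labels do not say whether both kidneys came from 1 mouse. Kidneys were perfused with cold saline and dissociated with enzymes, and single cells were captured with the 10x single cell 3′ v2 chemistry.

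The cyclooxygenases encoded by Ptgs1 (COX-1) and Ptgs2 (COX-2) convert arachidonic acid into the endoperoxide that every prostanoid derives from, and terminal synthases then set which prostanoid is made. Each prostaglandin acts through G protein-coupled receptors on the same or neighbouring cells, and 15-hydroxyprostaglandin dehydrogenase (Hpgd) starts its breakdown. In the kidney the pathway is known for its part in salt and water transport along the thick ascending limb and the collecting duct, in renin release near the macula densa, in medullary blood flow and in inflammation.

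After filtering, 12586 of 15110 control barcodes and 13116 of 15257 ischemia barcodes were kept, with 124679362 and 128733541 unique molecular identifiers (UMIs, the count of captured transcripts) and medians of 3839 and 2138.5 UMIs per cell. The libraries shared 58 kept barcodes, 0.461% of the control cells and 0.442% of the ischemia cells. Clustering without the 10 genes gave 18 clusters, of which 15 were named from marker lists as resembling a cell type ("X-like"). The unnamed clusters were cluster 0 (4562 control and 5886 ischemia cells, median 836 UMIs), cluster 4 (855 and 751 cells) and cluster 16 (64 and 52 cells, led by Ptn, Adamts5 and Serpine2). Levels are given as CPM, the UMIs of a gene scaled to a fixed total of UMIs in the cells in question, and are not compared between genes. Each condition had 1 library, so the conditions could not be tested against each other. Brackets hold exact 95% intervals, which cover counting error only, and library and condition cannot be told apart.

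Of the 10 genes, 3 were at least 2-fold higher and 2 at least 2-fold lower in the ischemia library over all kept cells, where 10.1% of all genes with at least 20 UMIs were that much higher and 4.77% that much lower. The higher genes were Ptgs2 (1.35 CPM in the control library and 11.1 CPM in the ischemia library), Hpgds (2.17 and 4.76 CPM) and Ptger4 (4.07 and 8.40 CPM). The lower genes were Ptgds (8.69 and 2.87 CPM) and Ptger1 (4.66 and 1.36 CPM). Between these bounds lay Ptgs1 (14.8 and 10.6 CPM), Ptges (14.2 and 15.5 CPM), Hpgd (9.95 and 7.87 CPM), Ptger3 (69.6 and 35.7 CPM) and Ptgfr (26.7 and 17.0 CPM). Sums over all cells mix how many cells of each type were captured with how much RNA each held: the control and ischemia libraries had 33 and 208 neutrophil-like cells, 328 and 617 macrophage-like cells and 3903 and 2784 proximal tubule-like (PT-like) cells. The levels below are therefore given within cell classes.

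**Figure D1:**
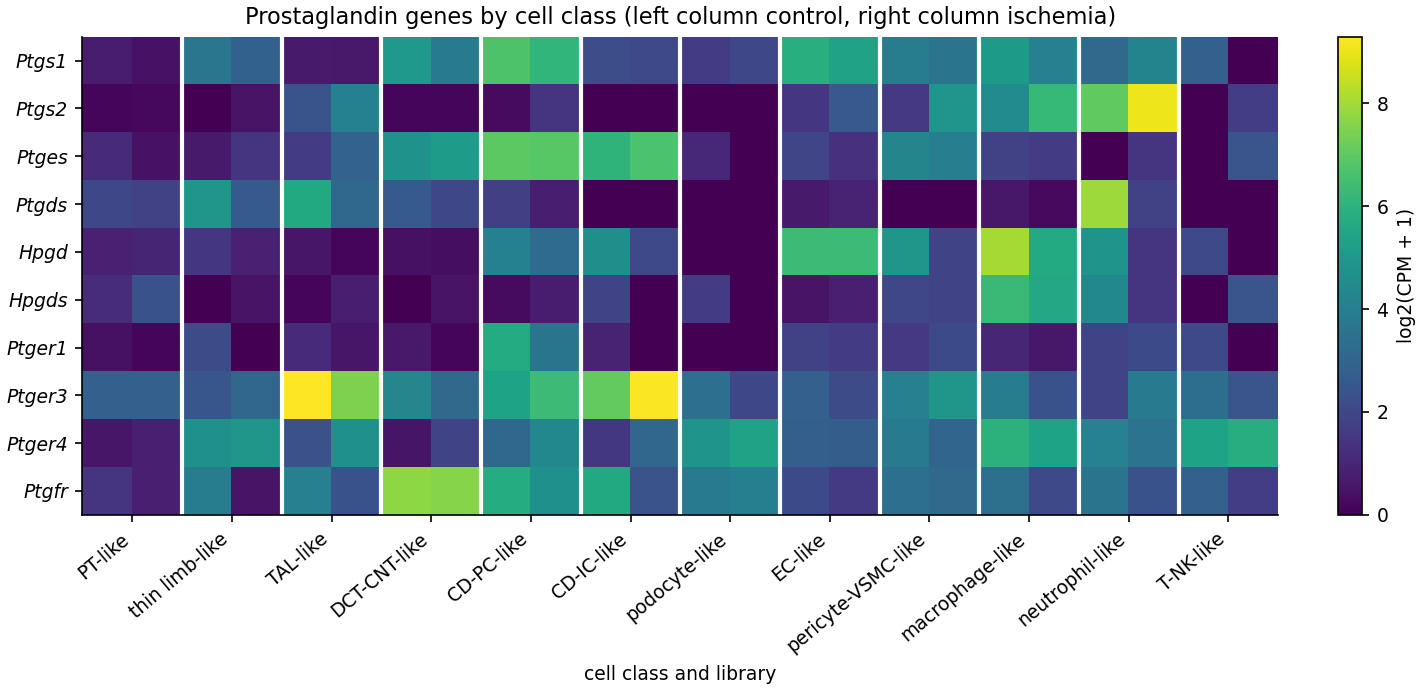
Colour scale of log2(CPM + 1) for the 10 genes (rows) in each named cell class (columns, control on the left and ischemia on the right of each pair). Ptger3 was brightest in TAL-like cells of the control library (626 CPM), Ptgs2 in neutrophil-like cells of the ischemia library (527 CPM) and Ptgfr in distal convoluted and connecting tubule-like (DCT-CNT-like) cells of both (209 and 194 CPM).

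The sequences just upstream of 4 of the genes are shown first because in thick ascending limb-like (TAL-like) cells Ptgs2 and Ptger4 were higher and Ptger3 and Ptgds lower in the ischemia library. Each line holds the 250 bases before the RefSeq gene start (GRCm38.p6), 5′ to 3′ on the gene's strand, at chr1:150099781-150100030 (plus strand) for Ptgs2, chr15:5244188-5244437 (minus strand) for Ptger4, chr3:157566626-157566875 (plus strand) for Ptger3 and chr2:25469750-25469999 (minus strand) for Ptgds. Capitals mark matches, on either strand, to the searched motifs.
Ptgs2: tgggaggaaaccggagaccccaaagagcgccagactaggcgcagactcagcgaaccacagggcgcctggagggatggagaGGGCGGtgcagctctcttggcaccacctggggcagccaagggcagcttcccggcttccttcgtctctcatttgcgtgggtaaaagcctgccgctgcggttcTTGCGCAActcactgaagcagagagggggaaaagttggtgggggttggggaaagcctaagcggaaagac
Ptger4: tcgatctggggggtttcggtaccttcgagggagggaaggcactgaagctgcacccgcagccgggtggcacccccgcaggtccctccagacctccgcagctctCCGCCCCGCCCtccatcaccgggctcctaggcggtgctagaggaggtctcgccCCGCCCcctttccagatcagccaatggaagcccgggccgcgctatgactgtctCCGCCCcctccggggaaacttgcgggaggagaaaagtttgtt
Ptger3: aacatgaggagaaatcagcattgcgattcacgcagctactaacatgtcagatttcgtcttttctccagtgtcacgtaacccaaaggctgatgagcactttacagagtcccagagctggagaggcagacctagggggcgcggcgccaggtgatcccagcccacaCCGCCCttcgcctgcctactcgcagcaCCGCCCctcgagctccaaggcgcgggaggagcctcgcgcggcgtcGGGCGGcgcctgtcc
Ptgds: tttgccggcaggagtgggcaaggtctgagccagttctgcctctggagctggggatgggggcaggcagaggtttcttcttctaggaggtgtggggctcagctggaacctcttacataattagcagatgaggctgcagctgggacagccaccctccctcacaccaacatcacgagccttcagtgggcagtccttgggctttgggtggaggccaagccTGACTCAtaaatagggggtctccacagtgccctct
The motifs searched, with the share of 32536 promoters of the same length that held each, were the TATA box TATAAA (12.3%), the core of the cAMP response element TGACGT (6.50%), the E-box CACGTG (6.04%), the NF-kappaB motif (1.40%), the AP-1 motif TGANTCA (6.73%), the C/EBP motif TTGCGCAA (0.166%) and the GC box GGGCGG (33.0%). The Ptgs2 window held the C/EBP motif starting 69 bases before the gene start and a GC box at 170 bases. The Ptgds window held an AP-1 motif at 35 bases. The Ptger4 window held GC boxes at 148, 143, 95 and 42 bases, the first and the next of which overlap, and the Ptger3 window held them at 87, 60 and 15 bases. A match describes letters in the window and not a bound site.

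Ptgs1 (chr2:36230426-36252272, plus strand, GRCm38) encodes the constitutive cyclooxygenase. Its leading class was the collecting duct principal cell-like (CD-PC-like) cluster, with 102 CPM [96.0, 109] in the control library (956 UMIs, 453 cells) and 67.9 CPM [63.1, 73.0] in the ischemia library (738 UMIs, 391 cells). The ischemia level was 0.664 of the control level [0.602, 0.731]. Of all Ptgs1 UMIs, 51.6% (control) and 54.1% (ischemia) lay in this cluster. Divided into sub-clusters, its principal cell-like cells had 141 and 87.8 CPM and its intercalated cell-like cells 62.3 and 33.1 CPM. Ptgs1 was also lower in the ischemia library in endothelial-like (EC-like) cells, at 56.5 and 39.7 CPM (ratio 0.703 [0.592, 0.835]), and in distal convoluted and connecting tubule-like (DCT-CNT-like) cells, at 30.5 and 13.6 CPM (0.447 [0.353, 0.562]). In macrophage-like cells it was at 32.2 and 15.5 CPM. Where Ptgs1 was at least 2-fold lower, in DCT-CNT-like and macrophage-like cells, 6.0% and 6.99% of all genes tested were that much lower. PT-like cells, taken as the background class, had 0.683 and 0.382 CPM. The share of CD-PC-like cells with a Ptgs1 UMI was 57.2% and 58.1% as sequenced, at median depths of 16087 and 21290 UMIs, and 7.32% and 3.33% after each cell was thinned to 1000 UMIs. In PT-like cells (median depths 13877 and 18193.5 UMIs) it was 1.23% and 0.934% as sequenced.

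Ptgs2 (chr1:150100031-150108227, plus strand) encodes the inducible cyclooxygenase, and in the ischemia library 45.3% of its UMIs lay in neutrophil-like and 29.5% in macrophage-like cells. Its leading class was the neutrophil-like cluster, with 131 CPM (48 UMIs, 33 cells) in the control and 527 CPM (646 UMIs, 208 cells) in the ischemia library, a ratio of 4.03 [3.01, 5.53]. Of the 10 genes, 3 could be followed in this cluster, of which Ptgs1 (3 and 21 UMIs) and Ptgs2 were at least 2-fold higher and Ptgds lower, against 13.8% and 13.3% of all genes tested. The control part of the cluster was mixed, since 14 of its 33 cells left it when clustering was finer (resolution 0.6). Among the 19 control and 190 ischemia cells that stayed, Ptgs2 was at 395 and 728 CPM, a ratio of 1.85 [1.38, 2.53], so the difference fell below 2-fold. In those cells the control library held no Ptgs1 and no Ptgds UMI, against 15 and 1 in the ischemia library, so neither of the other 2 calls had a control value there. Within those cells 57.9% of control and 76.3% of ischemia cells held a Ptgs2 UMI, and 36.8% and 47.9% did so after thinning.

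In macrophage-like cells Ptgs2 was at 21.5 CPM (42 UMIs) in the control and 74.0 CPM (421 UMIs) in the ischemia library (ratio 3.45 [2.51, 4.85]). Of the 10 genes, 7 could be followed in macrophage-like cells, of which Ptgs2 was at least 2-fold higher and 4 (Ptgs1, Hpgd, Ptger3 and Ptgfr) at least 2-fold lower, against 6.66% and 6.99% of all genes tested. Tubule marker lists, summed over macrophage-like cells, were lower too: 4776 and 2537 CPM (PT), 471 and 109 CPM (TAL) and 109 and 32.9 CPM (CD-PC). The part of tubule transcripts in the 4 lower calls was not tested. The neutrophil marker list summed to 16.3 and 232 CPM in macrophage-like cells, and its part in the Ptgs2 level was not tested. The macrophage-like cluster was divided further. In its C1q-expressing macrophage-like cells (224 control and 254 ischemia cells) Ptgs2 was at 15.8 and 44.8 CPM (2.84 [1.75, 4.84]). The neutrophil list summed to 18.1 and 29.5 CPM in these cells. Monocyte-like cells numbered 21 in the control library, with no Ptgs2 UMI, and 270 in the ischemia library, with 295 UMIs (115.5 CPM). With 3 counts (21.1 CPM) allowed for the 0 in the control cells, the Ptgs2 level in monocyte-like cells was 5.49-fold higher in the ischemia library. The exact interval of the ratio began at 4.43. An unnamed sub-cluster led by the class II genes H2-Aa and Cd74 went the other way, at 90.3 and 42.1 CPM (0.466). The level of the whole class therefore also reflects how many cells of each sub-cluster a library held.

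Ptgs2 in resident cells rested on few cells. TAL-like cells had 4.38 CPM (45 UMIs) in the control and 15.8 CPM (197 UMIs) in the ischemia library, a ratio of 3.61 [2.60, 5.11]. All 45 control UMIs lay in 5 cells, with 28 in 1 cell. Without cells that held a neutrophil or macrophage marker UMI the ratio was 2.25 [1.38, 3.70], and with a mitochondrial limit of 25% it turned to 0.740. TAL-like cells with at least 2 UMIs of macula densa markers (15 control and 22 ischemia cells) held Ptgs2 at 102 CPM (31 UMIs in 4 cells) and 48.6 CPM (38 UMIs in 10 cells), and the other TAL-like cells at 1.40 CPM (14 UMIs in 1 cell) and 13.6 CPM (159 UMIs in 29 cells). The macula densa, the sensor patch at the end of the thick ascending limb, is a known site of Ptgs2. The cell with 28 UMIs was among the 4 gated control cells, so both control levels rested on 1 cell each and no order between libraries is read from them. The neutrophil marker list, summed over TAL-like cells, went from 0.681 CPM (3 of 7 genes detected) in the control to 19.4 CPM (6 of 7) in the ischemia library. The macrophage list, which includes Apoe in this sum, went from 163 to 78.1 CPM. Cells were removed on the macrophage list without Apoe, here and wherever cells with or without a macrophage marker UMI are named. The 2 sets of genes therefore differ. The part of either list in the Ptgs2 level beyond the cells removed above was not tested.

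In pericyte and vascular smooth muscle-like cells Ptgs2 was at 1.93 CPM (2 UMIs) and 27.8 CPM (51 UMIs), a ratio of 14.4 [3.79, 122]. The fibroblast-like sub-cluster (34 and 46 cells) held 1 and 35 of these UMIs, at 4.81 and 93.1 CPM (19.4 [3.25, 786]), with the 35 UMIs in 5 cells. Of the 7 genes that could be followed in pericyte and vascular smooth muscle-like cells, Ptgs2 was at least 2-fold higher and Hpgd lower, against 5.25% and 4.22% of all genes. In EC-like cells Ptgs2 was at 1.80 and 5.003 CPM (2.78). Without cells that held a neutrophil or macrophage marker UMI that ratio was 1.74 [0.606, 5.66], an interval that spans 1, and with cells picked by marker UMIs it was 1.21. PT-like cells had 0.125 and 0.162 CPM.

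**Figure D2:**
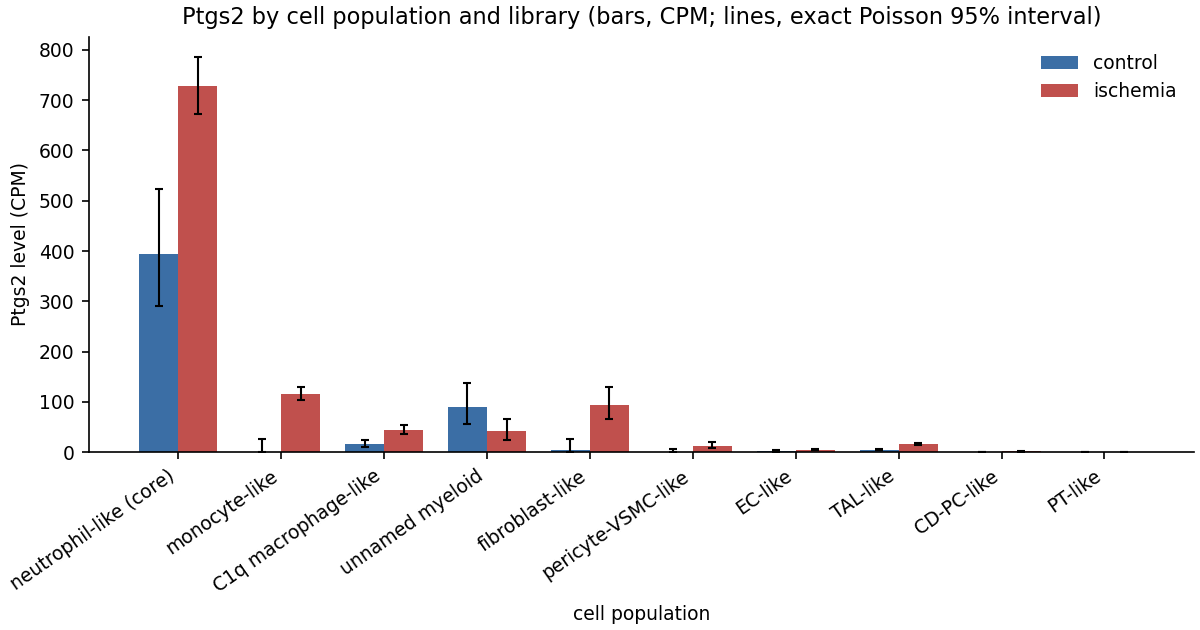
Ptgs2 level in CPM (bars, with lines for the exact 95% interval) by cell population in the control (blue) and ischemia (red) libraries. Here neutrophil-like (core) stands for the cells that stayed neutrophil-like at resolution 0.6 (395 and 728 CPM), and pericyte-VSMC-like for the sub-cluster without fibroblast-like cells (0 and 12.5 CPM).

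Ptges (chr2:30889471-30929863, minus strand) encodes the inducible microsomal synthase that makes prostaglandin E2. CD-PC-like cells had 122 CPM in the control (1135 UMIs) and 118 CPM in the ischemia library (1283 UMIs), a ratio of 0.972 [0.896, 1.05], so at this depth no difference was detectable. These cells held 63.98% and 64.1% of all Ptges UMIs. Within them Ptges was at 129 and 119 CPM in principal cell-like, 93.4 and 96.0 CPM in intercalated cell-like and 176 and 167 CPM in DCT-CNT-like cells. In the separate intercalated cell-like (CD-IC-like) cluster Ptges was at 65.4 and 99.7 CPM (1.52 [1.11, 2.10]), and in DCT-CNT-like cells at 25.7 and 33.1 CPM (1.29 [1.07, 1.55]). TAL-like cells had 2.14 and 6.67 CPM (3.11 [1.93, 5.24]). Without cells holding a neutrophil or macrophage marker UMI the TAL-like ratio was 1.80 [0.967, 3.40]. Within TAL-like cells, those with at least 2 macula densa marker UMIs had 23.0 CPM (7 UMIs in 3 cells) and 62.6 CPM (49 UMIs in 11 cells), and the rest 1.504 and 2.91 CPM. PT-like cells had 1.16 and 0.382 CPM (0.330 [0.204, 0.518]), but 0.969 [0.781, 1.20] when cells were picked by marker UMIs.

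Ptgds (chr2:25466709-25470046, minus strand) encodes the lipocalin-type prostaglandin D2 synthase. TAL-like cells had 49.1 CPM (505 UMIs, 497 cells) in the control and 7.55 CPM (94 UMIs, 487 cells) in the ischemia library, a ratio of 0.154 [0.122, 0.192]. Removing cells with a neutrophil or macrophage marker UMI left 0.170. The TAL-like cells held 46.6% of the control Ptgds UMIs and 25.5% of the ischemia ones. A Ptgds UMI was seen in 34.8% and 11.7% of TAL-like cells as sequenced, and in 3.23% and 0.619% after thinning, where PT-like cells had 2.84% and 4.49% as sequenced and 0.186% and 0.109% after thinning. Thin limb-like cells showed the same direction, at 29.6 and 5.26 CPM (51 and 13 UMIs, 0.178 [0.0886, 0.331]), as did the part of cluster 4 that joined the TAL-like cells when clustering was finer, at 38.1 and 9.79 CPM (0.257). The neutrophil-like cluster gave the highest Ptgds level of any class, 245 CPM in the control against 2.45 CPM. All 90 of those control UMIs lay in 3 of the 14 cells that left the cluster at resolution 0.6, and 71 in 1 of them, so this level did not describe neutrophil-like cells.

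Hpgds (chr6:65117293-65144908, minus strand) encodes the hematopoietic prostaglandin D2 synthase. It led in macrophage-like cells, with 76.1 CPM (149 UMIs) in the control and 47.8 CPM (272 UMIs) in the ischemia library, a ratio of 0.628 [0.512, 0.772]. In the C1q-expressing macrophage-like cells it was at 109 and 102 CPM (0.935 [0.756, 1.16]), and no difference was detectable there. The class as a whole also held 21 control and 270 ischemia monocyte-like cells. Hpgds in PT-like cells was at 1.28 CPM (92 UMIs) and 4.10 CPM (279 UMIs), a ratio of 3.19 [2.52, 4.09], and 1 of the 10 genes was at least 2-fold higher in PT-like cells, against 8.28% of all genes. Most of these Hpgds UMIs, 76 and 238, lay in 1 of the PT-like clusters, cluster 2 (2.22 and 6.80 CPM). Cluster 1 had 0.952 and 2.08 CPM, and cluster 5 had 0.0874 and 0.843 CPM (2 and 19 UMIs). PT-like cells were set as the background class for Hpgds too. Of the macrophage markers, C1qa was at 0.460 and 1.44 CPM and Csf1r at 1.12 and 1.07 CPM in PT-like cells. In PT-like cells without a macrophage marker UMI Hpgds was at 1.24 and 4.11 CPM. The part of macrophage transcripts in the Hpgds level beyond the cells so removed was not tested. A Hpgds UMI was found in 1.92% and 5.78% of PT-like cells as sequenced, and in 0 of the thinned control cells and 0.365% of the thinned ischemia cells.

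Hpgd (chr8:56294585-56321043, plus strand) encodes the dehydrogenase that inactivates prostaglandins, and in macrophage-like cells it had the lowest ratio of the 7 genes followed there. Macrophage-like cells had 263 CPM (515 UMIs) in the control and 50.6 CPM (288 UMIs) in the ischemia library, a ratio of 0.192 [0.166, 0.223]. The direction was shared by the sub-clusters: 344 and 71.4 CPM in C1q-expressing macrophage-like cells (0.208 [0.173, 0.248]), 197 and 43.9 CPM in monocyte-like cells (28 and 112 UMIs), and 209 and 9.36 CPM in the unnamed class II-led sub-cluster. The share of macrophage-like cells with an Hpgd UMI was 48.5% and 20.7% as sequenced, at median depths of 5150 and 8300 UMIs, and 18.4% and 3.31% after thinning. Neutrophil-like cells, the background class for Hpgd, had 6.06% and 0.962% as sequenced. All 10 control Hpgd UMIs of that cluster lay in the cells that left it at resolution 0.6. The cells that stayed held 0 and 2 Hpgd UMIs, so the 6.06% did not describe neutrophil-like cells. EC-like cells held Hpgd at 81.3 and 81.0 CPM (406 and 534 UMIs, 0.996 [0.873, 1.14]), with no difference detectable. Without cells that held a neutrophil or macrophage marker UMI the EC-like ratio was 0.674 [0.573, 0.792]. Of all Hpgd UMIs, EC-like cells held 32.7% (control) and 52.7% (ischemia), whereas macrophage-like cells held 41.5% and 28.4%. Hpgd was also lower in the ischemia library in fibroblast-like cells (24 and 5 UMIs, 0.115 [0.0343, 0.308]), in CD-PC-like cells (15.96 and 8.56 CPM) and in CD-IC-like cells (26 and 3 UMIs). The whole pericyte and vascular smooth muscle-like cluster, which includes the fibroblast-like cells, held 30 and 5 Hpgd UMIs (0.0941 [0.0285, 0.245]). When cells were picked by marker UMIs, fibroblast-like cells were a class apart, and the pericyte and vascular smooth muscle-like ratio turned to 3.35.

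Ptger1 (chr8:83666678-83672753, plus strand) encodes the EP1 receptor for prostaglandin E2, which signals through calcium. It was concentrated in CD-PC-like cells, with 51.6 CPM (482 UMIs) in the control and 11.3 CPM (123 UMIs) in the ischemia library, a ratio of 0.219 [0.178, 0.268]. These cells held 83.0% of the control and 70.3% of the ischemia UMIs. Within the cluster the principal cell-like cells had 97.2 and 16.2 CPM (0.166 [0.134, 0.205]) and the intercalated cell-like cells 11.7 and 3.91 CPM. A Ptger1 UMI was seen in 53.0% of control and 25.1% of ischemia principal cell-like cells, and in 9.40% and 1.70% after thinning. In the same cells the ischemia level of Aqp2, the vasopressin-regulated water channel that marks them, was 0.428 of the control level. Of the 10 genes, 9 could be followed in CD-PC-like cells, with Ptgs2, Ptger3 and Ptger4 at least 2-fold higher and Ptgds, Ptger1 and Ptgfr lower, against 7.43% and 6.11% of all genes. Of these, Ptgs2 rested on 2 and 18 UMIs (ratio 7.74) and was at 1.89 [0.217, 22.6] without cells that held a neutrophil or macrophage marker UMI, while the neutrophil list in CD-PC-like cells summed to 1.07 and 98.1 CPM. Ptger3 was close to the 2-fold bound (2.01) and was below it at resolution 0.6 (1.69), with a minimum of 1000 UMIs (1.91) and over totals without mitochondrial UMIs (1.85). The cluster's intercalated cell-like cells held 347 of its 384 control and 763 of its 897 ischemia Ptger3 UMIs.

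Ptger3 (chr3:157566892-157645888, plus strand) encodes the EP3 receptor, which lowers cAMP and is known in the thick ascending limb for opposing vasopressin. TAL-like cells had 626 CPM (6437 UMIs) in the control and 177 CPM (2202 UMIs) in the ischemia library, a ratio of 0.282 [0.269, 0.296]. Their share of all Ptger3 UMIs was 74.2% and 47.9%. A Ptger3 UMI was seen in 83.1% and 70.2% of TAL-like cells as sequenced, at median depths of 19907 and 24629 UMIs, and in 36.5% and 11.5% after thinning, where PT-like cells had 0.612% and 0.802%. Of the 10 genes, 6 could be followed in TAL-like cells, and all 6 were past 2-fold, 3 higher and 3 lower (Ptgs2, Ptges and Ptgfr not under every alternative), against 18.4% of all genes in either direction (9.68% higher and 8.7% lower). With 0.5 UMIs added to each count, their median log2 ratio was -0.10, and that of all genes tested was 0.10, so the 6 did not share a direction. The part of cluster 4 that joined the TAL-like cells had 304 and 80.7 CPM (0.265). Marker genes of the segment also differed: Slc12a1, the apical salt cotransporter, was at 5218 and 501 CPM in TAL-like cells, Umod at 12988 and 8411 CPM, and Lcn2, an injury marker, at 421 and 5342 CPM.

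Outside the TAL-like cells, Ptger3 went the other way in the collecting duct. CD-IC-like cells had 133 CPM (146 UMIs, 58 cells) in the control and 596 CPM (562 UMIs, 46 cells) in the ischemia library, a ratio of 4.50 [3.74, 5.43]. The 5 ischemia cells with most Ptger3 held 244 of the 562 UMIs. After thinning, 6.90% of control and 32.6% of ischemia CD-IC-like cells held a Ptger3 UMI. Of the 4 genes followed in CD-IC-like cells, Ptger3 was at least 2-fold higher and Hpgd and Ptgfr lower, against 7.67% and 4.8% of all genes. Intercalated cell-like cells within the CD-PC-like cluster had 94.7 and 271 CPM (2.86), and principal cell-like cells 4.995 and 11.9 CPM (2.39). The former held 347 of the 384 control and 763 of the 897 ischemia Ptger3 UMIs of that cluster. The principal cell-like cells held 22 and 82, where PT-like cells, the background class, were at 6.16 and 6.24 CPM. Transcripts of TAL-like cells were also present in the CD-IC-like cells, where the TAL marker list summed to 440 and 1359 CPM and Umod to 408 and 1335 CPM, while Slc12a1 went from 11 control UMIs to 0. Without cells holding a Slc12a1 UMI the CD-IC-like ratio was 4.41 [3.63, 5.40]. That removal took out no ischemia cell (46 cells and 562 UMIs before and after), so it could not change the ischemia level. The part of TAL-like transcripts in the Ptger3 level was therefore not tested. The CD-IC-like cluster was led by the marker Slc26a4, which was lower in the ischemia library (2446 and 1775 CPM). Slc4a1, on the same marker list, was also lower there (49.98 and 1.06 CPM). It was not among the 10 leading genes of this cluster, but was among those of the intercalated cell-like sub-clusters of the CD-PC-like cluster. The other markers on the list are not given here.

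Elsewhere Ptger3 was at 18.9 and 8.37 CPM in DCT-CNT-like cells (0.442), 14.3 and 4.04 CPM in macrophage-like cells (0.283, but 0.667 with a mitochondrial limit of 25%) and 6.16 and 6.24 CPM in PT-like cells (1.01). Of the 6 genes followed in DCT-CNT-like cells, Ptger4 was at least 2-fold higher (8.27% of all genes) and Ptgs1 and Ptger3 lower (6.0%). The DCT-CNT-like ratio turned to 1.82 without integration of the libraries and to 1.24 when cells were picked by marker UMIs. In the ischemia library the DCT-CNT-like and macrophage-like levels were close to that of PT-like cells, the background class. The DCT-CNT-like sub-cluster of the CD-PC-like cluster went the other way, at 11.8 and 44.1 CPM (15 and 52 UMIs, 3.74 [2.07, 7.15]). The part of cluster 4 that joined the DCT-CNT-like cells at resolution 0.6 was lower, at 22.1 and 3.66 CPM (60 and 6 UMIs, 0.166 [0.0585, 0.382]).

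**Figure D3:**
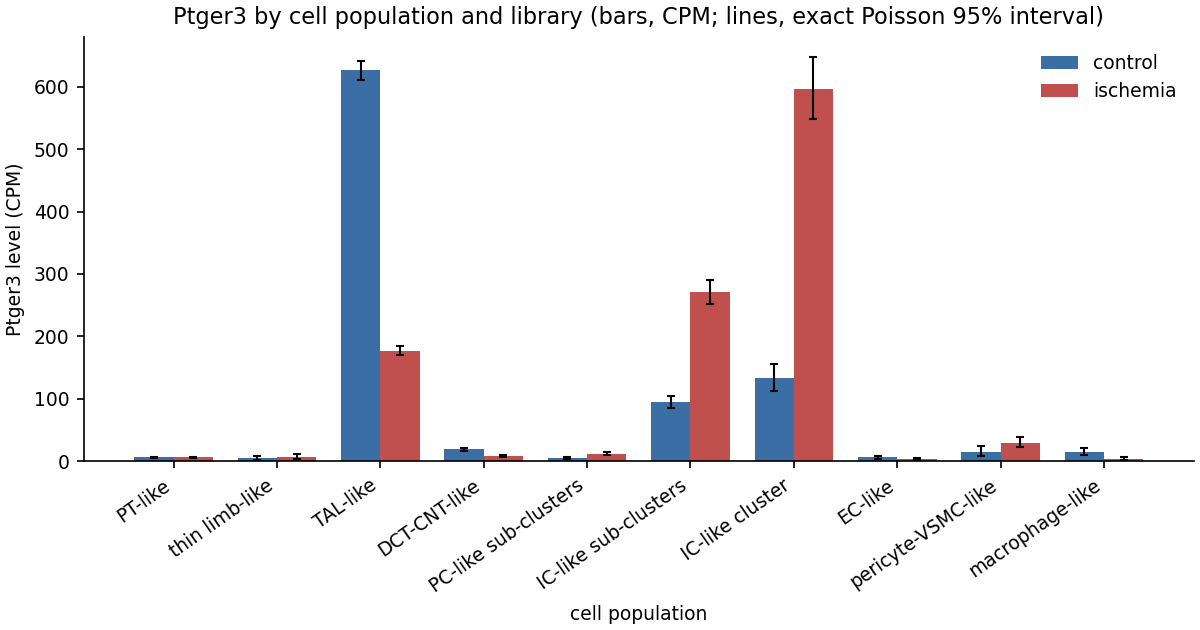
Ptger3 level in CPM (bars, with lines for the exact 95% interval) by cell population in the control (blue) and ischemia (red) libraries. TAL-like cells were lower in the ischemia library (626 and 177 CPM), the intercalated cell-like (IC-like) cluster was higher (133 and 596 CPM), and PT-like cells were level (6.16 and 6.24 CPM).

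Ptger4 (chr15:5206661-5244187, minus strand, overlapping Ttc33 on the opposite strand) encodes the EP4 receptor, which raises cAMP. By level it led in macrophage-like cells, with 61.8 CPM (121 UMIs) in the control and 41.5 CPM (236 UMIs) in the ischemia library (0.671 [0.537, 0.842]). C1q-expressing macrophage-like cells had 74.1 and 43.6 CPM (0.588), and the unnamed class II-led sub-cluster 82.1 and 81.9 CPM. Monocyte-like cells held 1 and 78 Ptger4 UMIs (4.35 [0.759, 174]) and conventional dendritic cell-like cells 6 and 16 (2.18 [0.811, 6.81]), with intervals that span 1. In the TAL-like, CD-PC-like and DCT-CNT-like clusters Ptger4 was higher in the ischemia library. TAL-like cells had 3.99 CPM (41 UMIs) and 24.3 CPM (302 UMIs), a ratio of 6.08 [4.38, 8.65], and without cells holding a neutrophil or macrophage marker UMI it was 6.22 [4.29, 9.24]. The share of TAL-like cells with a Ptger4 UMI was 6.84% and 31.6% as sequenced and 0.605% and 2.27% after thinning, where PT-like cells had 0.106% and 0.255%. The part of cluster 4 that joined the TAL-like cells at resolution 0.6 had 3.31 and 5.13 CPM (8 and 11 UMIs). Its ratio was 1.55 [0.568, 4.44], with an interval that spans 1. CD-PC-like cells had 7.60 and 19.2 CPM (2.53 [1.92, 3.36]), and DCT-CNT-like cells held 4 and 21 UMIs (6.20 [2.09, 24.8]). In T and NK-like cells Ptger4 was at 40.6 and 53.9 CPM (1.33), in podocyte-like cells at 27.4 and 39.5 CPM, and in thin limb-like cells at 24.4 and 29.5 CPM (1.21). Cluster 16 had 95.4 and 65.7 CPM (0.689 [0.457, 1.02]). In podocyte-like and in T and NK-like cells Ptger4 was the only 1 of the 10 genes that reached 20 UMIs, and it was within 2-fold, as were all but 8.47% and 9.97% of the genes tested.

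**Figure D4:**
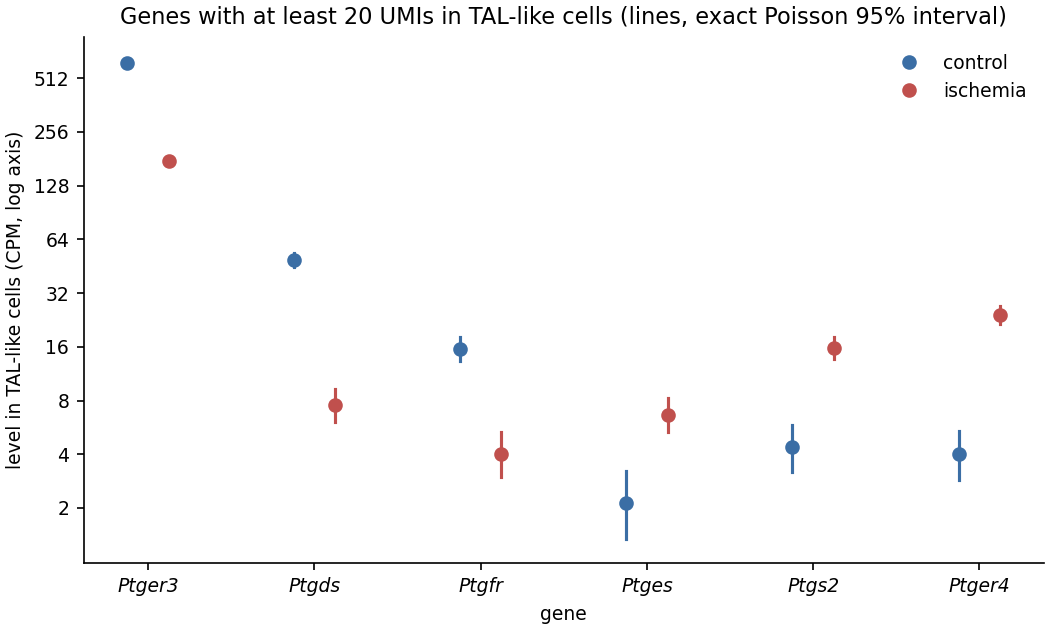
Level in TAL-like cells (CPM on a log axis, points with exact 95% intervals as lines) of the 6 genes with at least 20 UMIs there, in the control (blue) and ischemia (red) libraries. Ptger3, Ptgds and Ptgfr were lower and Ptges, Ptgs2 and Ptger4 higher in the ischemia library, and the direction of Ptgs2 was not kept under every alternative.

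Ptgfr (chr3:151796502-151837630, minus strand) encodes the FP receptor for prostaglandin F2-alpha. DCT-CNT-like cells had 209 CPM (1891 UMIs) in the control and 194 CPM (1487 UMIs) in the ischemia library, a ratio of 0.929 [0.867, 0.994], and held 56.9% and 67.9% of all Ptgfr UMIs. Without integration of the libraries the ratio was 0.429. The share of DCT-CNT-like cells with a UMI was 74.9% and 71.0% as sequenced and 17.8% and 13.4% after thinning. Neighbouring segments differed more. CD-PC-like cells had 52.5 and 24.6 CPM (0.468 [0.402, 0.545]), with 70.2 and 24.7 CPM in their principal cell-like cells (0.353). CD-IC-like cells held 54 and 4 UMIs (0.0865), TAL-like cells 160 and 50 UMIs (15.6 and 4.02 CPM, 0.258, but 0.785 with cells picked by marker UMIs) and thin limb-like cells 24 UMIs and 1 UMI. The part of cluster 4 that joined the TAL-like cells had 16.1 and 17.7 CPM (1.10), unlike the TAL-like cluster itself. Of the 5 genes followed in thin limb-like cells none was at least 2-fold higher (5.32% of all genes were) and Ptgds and Ptgfr were lower (9.39%).

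**Figure D5:**
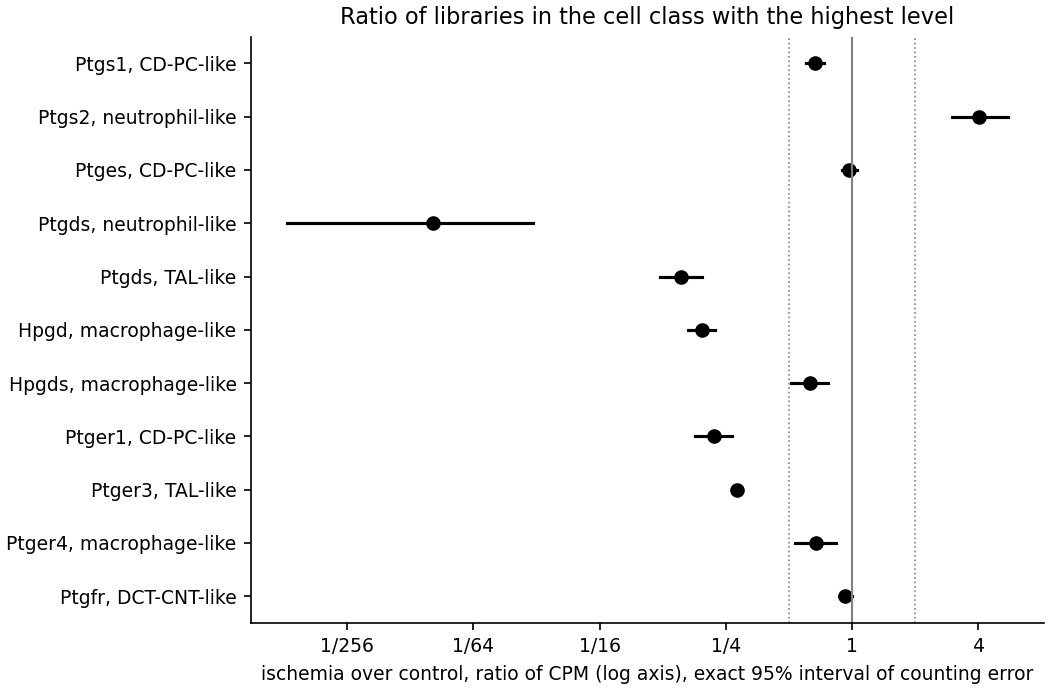
Ratio of the ischemia to the control level (log axis, points with exact 95% intervals as lines) of each gene in its leading cell class, with Ptgds also in TAL-like cells. The dotted lines mark 2-fold, and the ratios ran from 0.00999 for Ptgds in the neutrophil-like cluster to 4.03 for Ptgs2 in the same cluster, with Ptges (0.972) and Ptgfr (0.929) nearest to 1. The control part of the neutrophil-like cluster was mixed. All its 90 control Ptgds UMIs lay in cells that left it at resolution 0.6, and in the cells that stayed the Ptgs2 ratio was 1.85.

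Over the named classes, the order of levels differed from gene to gene. For Ptgs1, Ptges and Ptger1 the CD-PC-like cells stood first in both libraries, for Hpgds the macrophage-like cells and for Ptgfr the DCT-CNT-like cells. The CD-PC-like and CD-IC-like levels of Ptges in the ischemia library (118 and 99.7 CPM) had overlapping intervals. For Ptger4 the macrophage-like cells stood first in the control and the T and NK-like cells in the ischemia library, where the levels (41.5 and 53.9 CPM) again had overlapping intervals. For Ptger3 the TAL-like cells stood first in the control and the CD-IC-like cells in the ischemia library (177 and 596 CPM, with intervals apart). For Hpgd the macrophage-like cells stood first in the control (263 against 81.3 CPM in EC-like cells) and the EC-like cells in the ischemia library (81.0 against 50.6 CPM), where EC-like cells without a neutrophil or macrophage marker UMI had 53.1 CPM [47.0, 59.8] and did not stand apart. In PT-like cells, with 3 of 10 genes at least 2-fold lower (4.8% of all genes), the 3 were Ptges, Ptger1 and Ptgfr, which reached at most 1.70 CPM. PT-like cells were the background class for these 3. The CD-PC marker list summed to 48.2 and 19.0 CPM in PT-like cells and the TAL list to 326 and 190 CPM. The part of such transcripts in the 3 calls was not tested. In EC-like cells 8 genes could be followed, with Ptgs2 at least 2-fold higher (2.9% of all genes) and none lower (4.86%). All genes tested had a median log2 ratio between -0.19 (neutrophil-like) and 0.11 (PT-like) over the named classes.

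The other genes of the pathway, from a list of 24, were followed by the same rule (at least 20 UMIs in a class, 2-fold between libraries). In TAL-like cells 15 reached 20 UMIs, with 1 higher (Alox5ap, 1 and 21 UMIs) and 1 lower, where 9.68% and 8.7% of all genes were. The lower gene was Ptgr2, which reduces prostaglandin metabolites, at 52.9 and 20.1 CPM (0.38), and it was lower in DCT-CNT-like cells too (66.7 and 28.6 CPM, 0.43). In CD-PC-like cells 2 of 15 were higher, Alox5ap (1 and 22 UMIs) and the prostaglandin transporter Slco2a1 (11 and 35 UMIs), and none was lower (7.43% and 6.11% of all genes). Beside Alox5ap, the neutrophil list summed to 0.681 and 19.4 CPM in TAL-like cells and to 1.07 and 98.1 CPM in CD-PC-like cells, and its part in the Alox5ap counts was not tested. In DCT-CNT-like cells 2 of 13 were higher, one of them Ltc4s, the leukotriene C4 synthase (122 and 306 CPM, 2.50). In PT-like cells 2 of 17 were higher, among them Akr1b3, an aldose reductase with prostaglandin F synthase activity (8.93 and 25.9 CPM, 2.90), and 1 was lower, Akr1c18 (77 and 6 UMIs). Akr1b3 was instead the 1 lower gene in thin limb-like cells (628 and 219 CPM, 0.35). In neutrophil-like cells 3 of 12 were higher and none lower: Alox5 (4 and 76 UMIs), Tbxas1 (3 and 47 UMIs) and Alox5ap, the 5-lipoxygenase activating protein (308 and 637 CPM, 2.07). The control part of that cluster was mixed, so the 3 calls describe the mixed cluster. Among the cells that stayed neutrophil-like at resolution 0.6, Tbxas1 (3 and 46 UMIs) had a ratio of 2.10 [0.676, 10.6], an interval that spans 1. In pericyte and vascular smooth muscle-like cells 1 of 14 was higher, Pla2g4a, which releases arachidonic acid (17.4 and 55.5 CPM, 3.20), and in its fibroblast-like sub-cluster Pla2g4a was at 28.9 and 168 CPM (5.81). In EC-like cells 1 of 15 was lower, Tbxas1, the thromboxane synthase (26.6 and 12.9 CPM, 0.48), and in macrophage-like cells 1 of 16 was lower, Ltc4s (34.2 and 15.99 CPM, 0.47). In CD-IC-like cells 1 of 11 was higher (Pla2g4a, 6 and 18 UMIs) and 1 lower (Ptges2, 47 and 20 UMIs). In podocyte-like cells 1 of 9 was lower (Ptges2, 20 and 0 UMIs), and in thin limb-like cells 1 of 10 was higher, the exporter Abcc4 (81.9 and 176 CPM). In T and NK-like cells none of 6 was past 2-fold. Over all genes the share at least 2-fold higher ran from 2.9% (EC-like) to 13.8% (neutrophil-like) and the share lower from 4.22% (pericyte and vascular smooth muscle-like) to 13.3% (neutrophil-like), podocyte-like and T and NK-like cells aside.

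The genes whose pattern over the 24 class-by-library levels was most like each of the 10 (Pearson r of log2 CPM) were named as a description. The points share libraries and depth. They were Rasgrf2 for Ptgs1 (0.793), Sirpb1b for Ptgs2 (0.955), Klk1b5 for Ptges (0.923), Cfap70 for Ptgds (0.824), Pltp for Hpgd (0.862), Zmynd15 for Hpgds (0.955), Wnt9b for Ptger1 (0.940), Car15 for Ptger3 (0.894), Rpl21 for Ptger4 (0.839) and Klhl3 for Ptgfr (0.909).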

How the data were processed

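Single-cell RNA of 1 control (contralateral, uninjured) and 1 ischemic mouse kidney was measured. The authors deposited raw UMI counts per gene and barcode, which the submitters' notes tie to Cell Ranger 7.0.0 and mm10 (GRCm38). Whether intronic reads were counted, and the strand setting, are not given in the sources used here.

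From those counts, a barcode was kept if it had 200 or more genes, between 500 and 150000 UMIs, and no more than 55% of UMIs from mitochondrial genes. Cells were normalized to 10000 UMIs, integrated and clustered (Seurat 5.3.0, R 4.3.3, 2000 variable genes without the 10 genes and the pathway list, 30 components, resolution 0.3, seed 42). Clusters were named by the marker list whose mean log2 ratio over other clusters (pseudocount of 10 CPM) was highest, provided that at least 3 markers had 10 or more UMIs and the 10 leading genes (50 or more UMIs) held a marker of that list and fewer of any other. The collecting duct, macrophage-like and stromal clusters were clustered again. Levels are CPM of summed UMIs, ratios carry exact conditional intervals, levels exact Poisson intervals and shares Clopper-Pearson intervals (95%, scipy 1.17.1, Python 3.11.15). All of these intervals cover counting error and nothing else, and where no UMI was seen up to 3 counts were allowed. A gene was followed in a class with at least 20 UMIs over both libraries and called past 2-fold, with no test, and since the minimum is met by the higher library alone, such counts are descriptions. The leading class of a gene was the named class, of at least 50 cells, with the highest mean level. All 10 genes were measured in every class, and the text gives a part of these values. Pathway genes are given by value only where past 2-fold. Scrublet (scanpy 1.11.5) called 0 doublets in both libraries and so had not worked, and the 8% highest scores (1007 and 1050 cells) were left out as an alternative. The scripts were tested on simulated data. The other alternatives changed the mitochondrial limit, the UMI minimum, the resolution, the integration, the cell naming (gates on marker UMIs), the total and the averaging.

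The genes and lists were chosen with earlier results of these data known. Gene positions came from GENCODE M21, which held 32158 of the 32285 identifiers, and promoter windows from RefSeq (GRCm38.p6), which matched 9 of the 10 genes (all but Ptger1).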

Additional observations from a re-analysis of the deposited data

Results flagged for a closer look

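Ptger3 differed in direction between cell populations of the same 2 libraries. Its ischemia to control ratio was 4.50 in CD-IC-like cells, 2.01 in the CD-PC-like cluster, 2.86 in that cluster's intercalated cell-like cells and 2.39 in its principal cell-like cells. It was 2.13 in the pericyte and vascular smooth muscle-like sub-cluster, and 3.74 in the DCT-CNT-like sub-cluster of the CD-PC-like cluster (15 and 52 UMIs). The ratio was 0.282 in TAL-like cells, 0.283 in macrophage-like cells and 0.442 in DCT-CNT-like cells. Over the alternatives the macrophage-like value ranged from 0.274 to 0.667. The value of the DCT-CNT-like cluster ranged from 0.383 to 1.82, so its direction was not kept under all of them. In the ischemia library the macrophage-like and DCT-CNT-like levels (4.04 and 8.37 CPM) were close to the PT-like background level (6.24 CPM). The TAL marker list in macrophage-like cells summed to 471 and 109 CPM, and its part in their Ptger3 ratio was not tested. Principal cell-like cells were at 4.995 and 11.9 CPM, where the PT-like background was at 6.16 and 6.24 CPM. Ptges also went in opposite directions, with a ratio of 3.11 in TAL-like cells and 0.330 in PT-like cells, the background class, where it lay at or below 1.16 CPM. The CD-PC marker list in PT-like cells summed to 48.2 and 19.0 CPM, and its part in that ratio was not tested. The TAL-like value was 1.80 [0.967, 3.40] without cells that held a neutrophil or macrophage marker UMI, and the PT-like value 0.969 with cells picked by marker UMIs. The CD-PC-like value of Ptger3 ranged from 1.69 to 3.43 over the alternatives. These differences between populations were not tested, since each condition had 1 library.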

How the results depend on the processing

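No paired analysis was possible because each group holds a single library, and so no library could be left out. Ptgs2 in the neutrophil-like cluster (4.03) was 1.58 with a limit of 25% mitochondrial UMIs, 1.86 with a minimum of 1000 UMIs, 1.85 at resolution 0.6, 1.85 without the cells that leave the cluster there (added after the data were seen), 1.93 without integration, 1.60 with cells gated on marker UMIs and 2.34 as a mean over cells. Ptgs1 in CD-PC-like cells (0.664) was 0.597 with the gate and 0.745 as a mean over cells. Ptges there (0.972) was 0.860 with the minimum of 1000 UMIs, and Ptger1 (0.219) was 0.172 with the gate and 0.166 in the principal cell-like sub-clusters alone (added). Ptger3 in TAL-like cells (0.282) was 0.297 with the minimum of 1000 UMIs, 0.230 without integration, 0.259 over totals without mitochondrial UMIs and 0.253 without cells holding a neutrophil or macrophage marker UMI (added). Ptgfr in DCT-CNT-like cells (0.929) was 0.429 without integration, 0.847 with the gate and 0.861 as a mean over cells. With no minimum of UMIs per gene, 26 pairs of gene and class instead of 14 were at least 2-fold higher in the ischemia library. That much lower were 40 instead of 21. With the minimum, 2.9% to 13.8% of all genes in a class were that much higher and 4.22% to 13.3% lower. Podocyte-like and T and NK-like cells are left out of these shares. No share of all genes is given for the pooled pairs. The pooled counts, and those of pairs kept under the alternatives below, are therefore descriptions of the calls only. The direction turned for Ptger3 in DCT-CNT-like cells without integration (1.82) and with the gate (1.24), for Hpgd in pericyte and vascular smooth muscle-like cells with the gate (3.35), and for Ptgs2 in TAL-like cells with the limit of 25% (0.740). The causes were not tested. With the gate, calls of 2-fold were lost for Ptgs1 in DCT-CNT-like (0.534) and macrophage-like cells (0.524), Ptgs2 in EC-like cells (1.21), Ptges in PT-like cells (0.969), and Ptgfr in TAL-like (0.785), macrophage-like (0.571) and PT-like cells (0.502). Of the 30 pairs past 2-fold outside the leading classes, 27 kept 1 direction and 18 stayed past 2-fold under all alternatives counted. An alternative counted only where it gave a value. Left out of these counts were the averaging over cells and the added removal of cells with a neutrophil or macrophage marker UMI. Under that removal Ptges in TAL-like cells (1.80) and Ptgs2 in CD-PC-like cells (1.89), both among the 18, fell below 2-fold. The ratios of Hpgd, Hpgds and Ptger4 in macrophage-like cells stayed within their counting intervals. Depth limits the pairs with few UMIs, such as Ptgs2 in fibroblast-like cells (1 control UMI).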

Other observations

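Hpgd in EC-like cells lay in few cells, 37 of 905 in the control and 43 of 1036 in the ischemia library (4.09% and 4.15%). Those with at least 3 Hpgd UMIs numbered 25 and 24 and held 390 of 406 and 510 of 534 UMIs, at median depths of 11937 and 22834 UMIs. The genes that led in these cells over the other EC-like cells included Aqp1, a water channel (4087 against 119 CPM), and Slc14a1, a urea transporter (395 against 13.7 CPM), both known from descending vasa recta endothelium. These cells were picked by their Hpgd UMIs after the values were seen, so the leading genes are a description.

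Ptges and Ptgs1, consecutive steps of prostaglandin E2 synthesis, were often found in the same CD-PC-like cells. A Ptges UMI was present in 84.2% of control cells with a Ptgs1 UMI and in 30.4% of those without, and in 85.0% and 40.2% of the ischemia cells. The cells with a Ptgs1 UMI were also deeper, with medians of 24168 against 6099.5 UMIs in the control and 26268 against 14052 UMIs in the ischemia library, and the part of depth in these shares was not tested. The cluster mixes cell types. In its principal cell-like cells alone the shares lay closer, at 78.8% against 41.0% in the control and 83.3% against 57.4% in the ischemia library. Depth differed there too (19455 against 4883.5 and 24410 against 10656 UMIs).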
